A study of Homo sapiens with 3 samples.

Results

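The genes described here are 39 genes of the ATF4 pathway and the unfolded protein response, measured in SKBR3 cells after 3 h with estradiol or with the peptide ERα17p. They were taken from the platform annotation as probe sets with a single gene symbol among these 39 names. All 39 were found, by 74 of the 54675 probe sets, out of 19775 genes measured in this way. They fall into an ATF4 arm of 26 genes, an endoplasmic reticulum (ER) arm of 10 genes and 3 stress sensors. SKBR3 is an established line from a human breast tumour, with an amplified ERBB2 gene and known for lacking oestrogen receptor α. All cells first spent 4 h in medium with 10% charcoal-stripped serum, from which steroids are depleted. The vehicle group was then kept in 0.1% ethanol, a second group in 1 µM estradiol, and the third in ERα17p at 1 µM, a peptide that copies a stretch of that receptor. RNA was extracted 3 h later. Each condition had 1 Affymetrix array, so that there was no replicate, no error and no test for any difference. Genes are called lower or higher where 2 arrays differed by 1.5-fold or more, which is 0.585 on the log2 scale.

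ATF4 is a transcription factor whose messenger RNA is translated when the initiation factor eIF2α is phosphorylated, as happens under amino acid shortage, ER stress, haem shortage or double-stranded RNA. It raises genes for amino acid synthesis and transport, for tRNA charging, and for stress-induced growth arrest and death. The unfolded protein response is set off by the ER sensors IRE1 (gene ERN1), PERK (EIF2AK3) and ATF6. PERK feeds into ATF4, whereas IRE1 and ATF6 raise ER chaperones and the machinery that degrades misfolded proteins, through spliced XBP1 and cleaved ATF6.

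Promoters of both arms hold letters of the known binding elements of these branches, and some stretches are shown so that they can be set beside the values. Both strands of the 250 bases before each start were searched in RefSeq's promoters (GRCh38.p14), which hold 36 of the 39 genes. The letters of the C/EBP-ATF response element, the site of ATF4 with its partners, were TGATGNAA. They occurred in 8 of the 36 genes and in 3.89% of all 27305 gene symbols with a promoter. In the ATF4 arm the 7 genes were CEBPG, JDP2, PPP1R15B, CHAC1, ASNS, AARS1 and GARS1, and in the ER arm 1 gene, HERPUD1, held them. Shown are CHAC1, ASNS and CEBPG, which were lower with each treatment, and AARS1 and HERPUD1, which were not. The stretches of JDP2, PPP1R15B and GARS1, which were not lower either, are left out. The following stretches run 5′ to 3′ on the gene's strand, with the matching letters in capitals. They lie at chr15:40953222-40953309 (plus strand, CHAC1), chr7:97872429-97872516 (minus strand, ASNS), chr19:33374031-33374112 (plus strand, CEBPG), chr16:70289646-70289733 (minus strand, AARS1) and chr16:56931926-56932013 (plus strand, HERPUD1).
CHAC1: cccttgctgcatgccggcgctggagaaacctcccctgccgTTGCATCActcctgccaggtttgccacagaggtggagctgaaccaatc
ASNS: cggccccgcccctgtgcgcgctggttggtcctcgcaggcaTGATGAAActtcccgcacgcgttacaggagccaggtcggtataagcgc
CEBPG: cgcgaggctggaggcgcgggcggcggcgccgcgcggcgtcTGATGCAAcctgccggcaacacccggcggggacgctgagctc
AARS1: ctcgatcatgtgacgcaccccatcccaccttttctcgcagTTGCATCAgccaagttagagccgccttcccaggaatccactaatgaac
HERPUD1: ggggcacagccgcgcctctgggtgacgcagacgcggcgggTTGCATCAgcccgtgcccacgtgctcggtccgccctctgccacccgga

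The ER stress response element, bound by ATF6 together with NF-Y, is CCAAT and CCACG separated by 9 bases of any kind. It was found in 4 of the 36 genes, all in the ER arm (HSPA5, HSP90B1, CRELD2 and XBP1), and in 0.0916% of all gene symbols. HSP90B1 held it at 2 places, once on each strand. The stretches lie at chr9:125241351-125241449 (minus strand, HSPA5), chr22:49918514-49918612 (plus strand, CRELD2), chr22:28800570-28800661 (minus strand, XBP1) and chr12:103930196-103930359 (plus strand, HSP90B1), again with the element in capitals.
HSPA5: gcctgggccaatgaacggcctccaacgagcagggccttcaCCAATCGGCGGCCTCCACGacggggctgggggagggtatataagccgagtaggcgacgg
CRELD2: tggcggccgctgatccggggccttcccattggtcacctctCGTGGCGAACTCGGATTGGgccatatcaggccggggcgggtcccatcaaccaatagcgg
XBP1: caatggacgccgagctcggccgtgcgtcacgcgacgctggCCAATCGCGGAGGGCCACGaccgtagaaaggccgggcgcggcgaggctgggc
HSP90B1: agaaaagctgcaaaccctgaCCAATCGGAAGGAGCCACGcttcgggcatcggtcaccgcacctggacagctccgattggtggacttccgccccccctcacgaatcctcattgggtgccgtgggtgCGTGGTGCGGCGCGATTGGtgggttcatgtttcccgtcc

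Of the 3 other motifs, the CRE (TGACGTCA) was found in 1 of the 36 genes, PPP1R15A, and in 2.03% of all symbols. It is shown because PPP1R15A had the widest difference of all 39 genes. The stretch was picked by that difference, so the match is no evidence about it. The AP-1 motif (TGANTCA) was found in 3 of the 36 genes (ATF5, DDIT3 and HSPA5) and in 8.06% of all symbols. The unfolded protein response element (TGACGTGG) was found in 0 of the 36 genes and in 0.78% of all symbols. For each of these 3 motifs the count is near the share over all symbols. CRE and TGACGTGG begin with the same bases and differ in the last ones, so that no place can match both on 1 strand. A match describes the letters of this window and not binding, and 13 of the 36 genes had several starts and so several windows. The PPP1R15A stretch lies at chr19:48872323-48872410 on the plus strand.
PPP1R15A: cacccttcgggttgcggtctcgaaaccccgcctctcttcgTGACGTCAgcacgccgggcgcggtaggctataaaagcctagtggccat

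The deposited values are distances of each probe set from a baseline that the authors subtracted, read here as log2, so that 0 is the baseline and expression levels cannot be seen. In 3979 of the 54675 probe sets a pair of the 3 arrays held mirror values around 0 (vehicle and estradiol in 1181, vehicle and ERα17p in 890, estradiol and ERα17p in 1923), so that there the baseline lay midway between them. These 3 arrays are therefore taken to be part of the baseline, together with others that are not described in the sources used here. Arrays that resemble each other lie near such a baseline by its making, so the small distance of the treated arrays from 0 cannot be read by itself. Differences between 2 arrays in a single probe set do not depend on the baseline. A gene's difference is that of 2 medians, and with 3 or more probe sets the baseline can decide which probe set is the median on each array. Because expression levels cannot be seen, it was not possible to check the labelled cell line by the level of its markers. The vehicle array stood apart from both treated arrays. Over all probe sets its standard deviation was 0.27, against 0.12 with estradiol and 0.13 with ERα17p, and 465 of 19775 genes (2.35%) exceeded the baseline by 1.5-fold or more there. On the estradiol array 0.00506% of genes lay that far above and 0.0506% below, and on the ERα17p array 0.0657% above and 0.00506% below. The ACTB probe sets for the 3′ and 5′ ends, between which a gap can mark degraded RNA, differed by 0.30 on the vehicle array, 0.02 with estradiol and -0.04 with ERα17p. Those of GAPDH differed less, by 0.05, 0.01 and -0.03 in the same order. Both are gaps between distances from the baseline and not ratios of signal. The part of these gaps in the differences below was not tested. Both comparisons with vehicle use that same array, so that they cannot serve as separate evidence for each other, and every difference from vehicle is given with each array's own value.

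The main pattern was a split within the ATF4 arm. Several stress factors and feedback genes were lower on each treated array than on the vehicle array, most of all the eIF2α phosphatase gene PPP1R15A (8.17-fold with estradiol, 7.64-fold with ERα17p) and the glutathione-degrading enzyme gene CHAC1 (6.39-fold and 5.77-fold). The aminoacyl-tRNA synthetases and most metabolic enzymes of the arm, and all 10 ER arm genes, differed by less than 1.5-fold, as did most of all genes. With estradiol 11 of the 39 genes (10 of 26 in the ATF4 arm, 0 of 10 in the ER arm and 1 of 3 sensors) were lower than with vehicle and 0 higher, against 2.93% of all genes lower and 0.809% higher. With ERα17p 9 (8 of 26, 0 of 10 and 1 of 3) were lower and 0 higher, against 2.14% and 0.582% of all genes. At 2-fold the ATF4 arm held 6 lower genes with estradiol and 5 with ERα17p, against 0.895% and 0.738% of all genes. The members were chosen with earlier results of these data known, so counts above these shares are description and not evidence. On the vehicle array itself, 10 of the 39 genes exceeded the baseline by 1.5-fold or more, and on either treated array 0 of the 39 lay that far from it in any direction, which the making of the baseline can itself bring about.

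**Figure D1:**
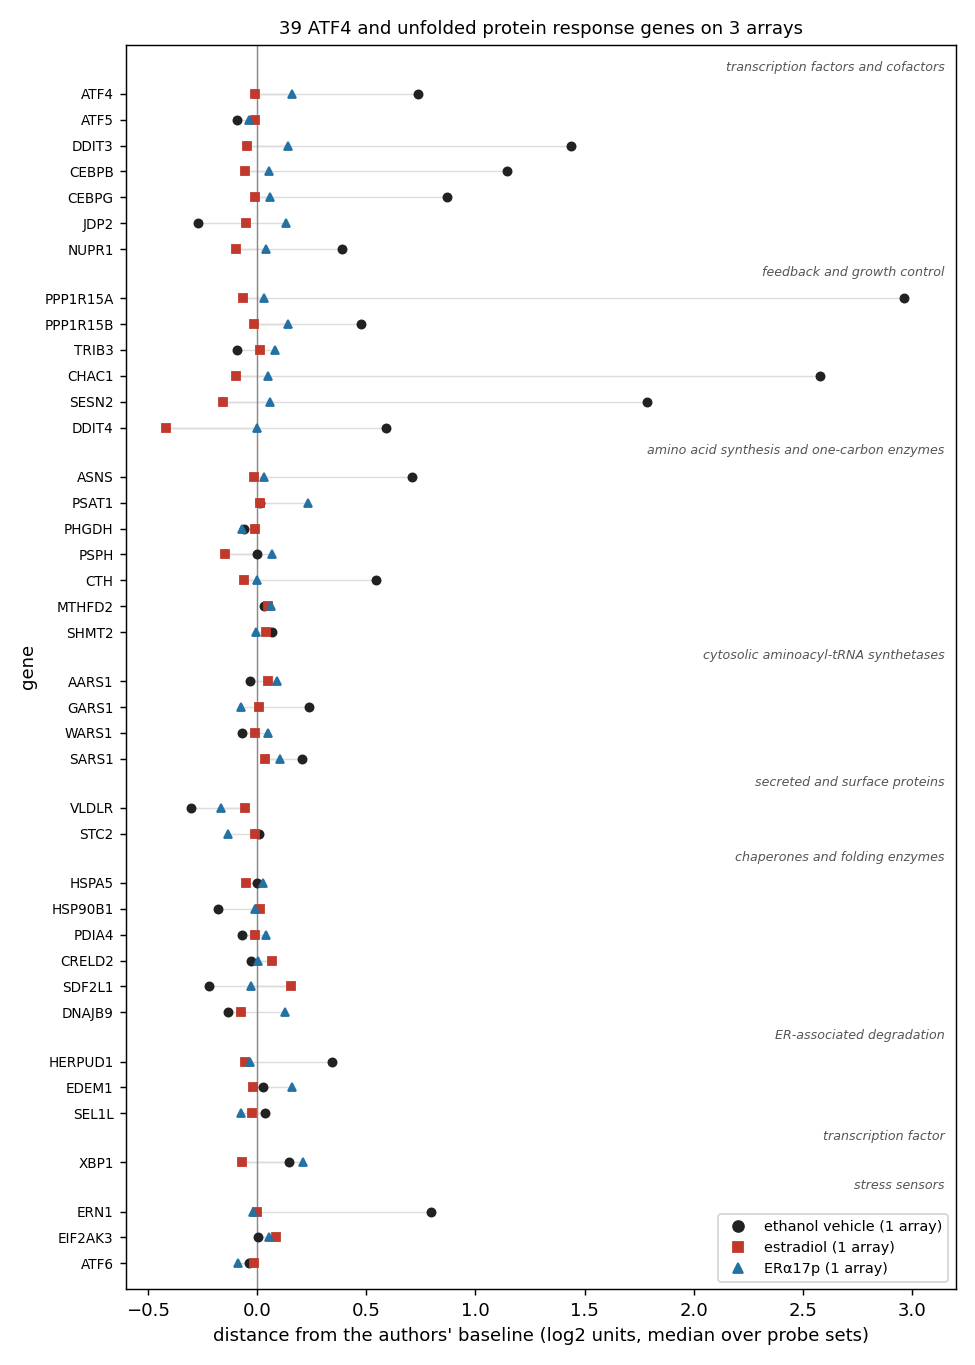
Values of the 39 genes on the 3 arrays, as the median over each gene's probe sets in log2 units from the authors' baseline, grouped by role. Each point is 1 array; the black circles of 10 genes, led by PPP1R15A at 2.96 and CHAC1 at 2.58, lie well to the right of 0, while the red squares and blue triangles stay between -0.42 and 0.23.

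Among transcription factors and cofactors, 4 of 7 genes were lower with estradiol and 3 of 7 with ERα17p, against 2.93% and 2.14% of all genes. ATF4 itself, read by 1 probe set, stood at 0.74 on the vehicle array, -0.01 with estradiol and 0.16 with ERα17p. Its difference was -0.75 with estradiol and -0.576 with ERα17p, the latter just short of 1.5-fold (1.49-fold). DDIT3, which encodes the pro-apoptotic factor CHOP, stood at 1.44, -0.05 and 0.14 in the same order, a difference of -1.48 with estradiol and -1.30 with ERα17p. It was the 79th lowest of all 19775 gene differences in either comparison. The bZIP factors CEBPB and CEBPG, partners of ATF4 at the response element, were lower as well.

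CEBPB stood at 1.14 on the vehicle array, -0.05 with estradiol and 0.06 with ERα17p, which gives differences of -1.20 and -1.09. CEBPG stood at 0.87, -0.01 and 0.06 (differences of -0.88 and -0.81), and both of its probe sets were lower with either treatment. The other 3 factors did not reach 1.5-fold in any comparison. NUPR1, a small stress-induced chromatin protein, stood at 0.39, -0.10 and 0.04, with the vehicle array highest. ATF5, a close relative of ATF4, stood at -0.09, -0.01 and -0.04, with all 3 arrays near the baseline. Its 4 probe sets ran from -0.36 to 0.25 in estradiol minus vehicle. JDP2, a repressor of AP-1 sites, was the reverse case, with its lowest value on the vehicle array (-0.27, against -0.05 with estradiol and 0.13 with ERα17p). Of its 2 probe sets 1 was higher with ERα17p than with vehicle, at 0.62, the only one of the 74 probe sets to be higher in a comparison with vehicle.

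Feedback and growth control genes held the widest differences, with 4 of 6 genes lower for each treatment. Over all genes 2.93% were lower with estradiol and 2.14% with ERα17p. PPP1R15A encodes GADD34, which brings a phosphatase to eIF2α and so restores translation after stress. It stood at 2.96 on the vehicle array, -0.07 with estradiol and 0.03 with ERα17p, and its differences of -3.03 and -2.93 were the 11th and the 9th lowest among all genes. Its 2 probe sets agreed closely, at -3.19 and -2.87 with estradiol. PPP1R15B, the constitutive counterpart of the same phosphatase, stood at 0.47, -0.02 and 0.14, which is 1.40-fold and 1.26-fold lower on the treated arrays and below the size rule.

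CHAC1, read by 1 probe set, stood at 2.58, -0.10 and 0.05 on the vehicle, estradiol and ERα17p arrays (differences of -2.68 and -2.53). SESN2, which encodes the leucine sensor and mTORC1 inhibitor sestrin 2, stood at 1.79, -0.16 and 0.06 (-1.94 and -1.73). DDIT4, which encodes REDD1, another mTORC1 inhibitor, had in addition a gap between the treated arrays. It stood at 0.59 with vehicle, -0.42 with estradiol and 0.00 with ERα17p, so that it was 2.01-fold lower with estradiol (-1.01) and only just past the size rule with ERα17p (-0.59). TRIB3, a pseudokinase that binds and restrains ATF4 and is usually counted among its most responsive targets, stood at -0.09, 0.01 and 0.08. Both of its probe sets lay within 0.23 of the vehicle array with either treatment, in contrast to CHAC1, DDIT3 and SESN2.

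Enzymes of amino acid synthesis and one-carbon metabolism were mostly level across the 3 arrays. Of these 7 genes, 2 were lower with estradiol and 1 with ERα17p, against 2.93% and 2.14% of all genes. ASNS, which makes asparagine and carries the response element shown above, stood at 0.71 on the vehicle array, -0.01 with estradiol and 0.03 with ERα17p (differences of -0.72 and -0.68). Only 1 of its 2 probe sets was lower, at -0.96 with estradiol, and the other stood at -0.48. CTH, the cystathionine lyase that makes cysteine, stood at 0.55, -0.06 and -0.00. It was just past 1.5-fold with estradiol (-0.60) and just short of it with ERα17p (-0.55).

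The serine synthesis enzymes PHGDH, PSAT1 and PSPH showed no such difference. PHGDH stood at -0.06, -0.01 and -0.07 on the vehicle, estradiol and ERα17p arrays, and PSAT1 at 0.01, 0.01 and 0.23. PSPH stood at -0.00, -0.15 and 0.07. The mitochondrial folate enzymes MTHFD2 (0.03, 0.05 and 0.06) and SHMT2 (0.07, 0.04 and -0.00) were level as well. The role group as a whole had a median difference of -0.02 with estradiol and -0.01 with ERα17p, against 0.03 over all genes in both comparisons.

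None of the 4 cytosolic aminoacyl-tRNA synthetases, which load tRNAs with their amino acids, reached 1.5-fold. At the shares over all genes (2.93% lower with estradiol, 2.14% with ERα17p), a count of 0 in 4 genes is near the background. GARS1 (glycine) had the widest values, 0.24 on the vehicle array, 0.01 with estradiol and -0.08 with ERα17p. SARS1 (serine) stood at 0.20, 0.04 and 0.10, with probe sets at -0.41 and 0.08 in estradiol minus vehicle. Closer to the baseline were AARS1 (alanine), at -0.04, 0.05 and 0.09, and WARS1 (tryptophan), at -0.07, -0.01 and 0.05. The 2 genes for secreted or surface proteins were also level or reversed. STC2, a secreted glycoprotein, stood at 0.01, -0.01 and -0.14, and the lipoprotein receptor gene VLDLR had its lowest value with vehicle (-0.30, against -0.06 and -0.16).

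**Figure D2:**
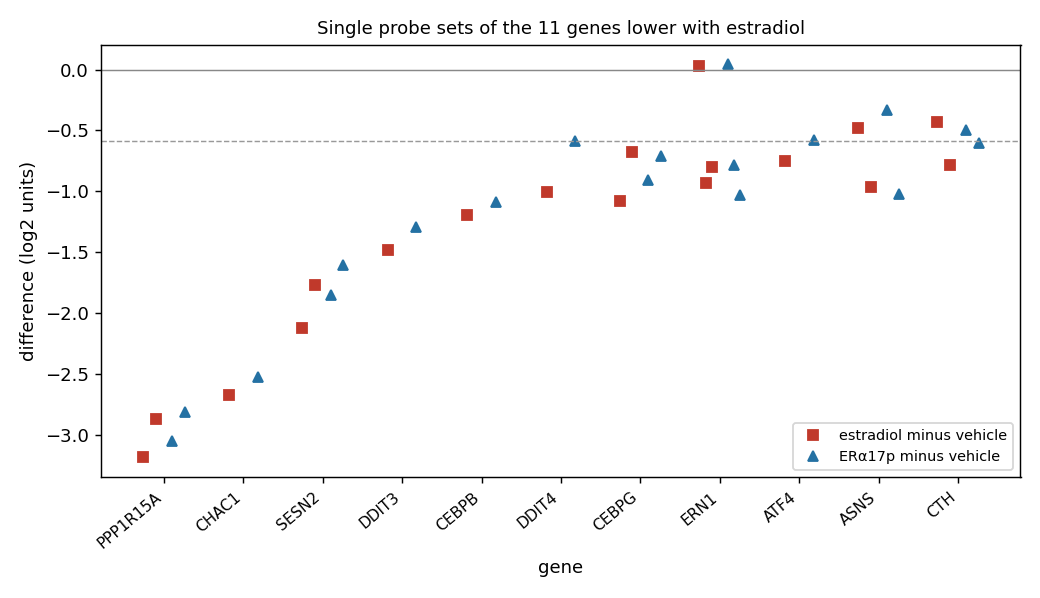
Log2 difference from the vehicle array for each single probe set of the 11 genes that were lower with estradiol, with red squares for estradiol and blue triangles for ERα17p; the dashed line marks 1.5-fold lower. The probe sets of PPP1R15A, SESN2 and CEBPG all lie below the line, whereas 1 probe set of ERN1 sits near 0 and those of ASNS and CTH lie on both sides of the line or near it.

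Agreement between probe sets was also read for these single-array values. Of the 11 genes lower with estradiol, 6 had several probe sets, and in 3 of these (PPP1R15A, SESN2 and CEBPG) every probe set passed 1.5-fold. In the other 3 (ASNS, CTH and ERN1) at least 1 probe set did not. With ERα17p the same check passed in 3 of 5 genes, and ASNS and ERN1 failed it. In all, 15 of the 74 probe sets were lower with estradiol and 14 with ERα17p. Neither this count nor the agreement was taken over all probe sets, so that they have no background share beside them.

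In the ER arm 0 of 10 genes were lower or higher with estradiol or with ERα17p. At the shares over all genes (2.93% and 2.14% lower), a count of 0 in 10 genes is near the background. In the ATF4 arm 38.5% of the genes were lower with estradiol and 30.8% with ERα17p. HSPA5, which encodes BiP, the main chaperone of the ER lumen, stood at 0.00 on the vehicle array, -0.05 with estradiol and 0.03 with ERα17p. HSP90B1 (GRP94) stood at -0.18, 0.01 and -0.01, and the disulphide isomerase gene PDIA4 at -0.07, -0.01 and 0.04. For both of these the vehicle array held the lowest value, the opposite of PPP1R15A and DDIT3.

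CRELD2, an ER-resident folding factor, stood at -0.03, 0.07 and 0.00. SDF2L1, a partner of BiP and its co-chaperones, had the widest spread of the chaperones, from -0.22 on the vehicle array through -0.03 with ERα17p to 0.15 with estradiol. DNAJB9 (ERdj4), a co-chaperone of BiP and a target of spliced XBP1, stood at -0.13 with vehicle, -0.07 with estradiol and 0.13 with ERα17p. Of these 6 chaperones and folding enzymes, 5 lay above 0 in estradiol minus vehicle and 6 in ERα17p minus vehicle. Most genes did so too, 11091 and 11462 of all 19775. The medians of the 6 were 0.08 and 0.14 (all genes 0.03 and 0.03). Single probe sets disagreed in part: with estradiol the 2 of HSP90B1 stood at 0.003 and 0.38, and the 3 of DNAJB9 ran from -0.26 to 0.18.

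Of the 3 ER-associated degradation genes, HERPUD1 differed most from vehicle. HERPUD1, a membrane scaffold of the degradation complex and the 1 gene of the ER arm with the C/EBP-ATF letters, stood at 0.34 on the vehicle array, -0.05 with estradiol and -0.03 with ERα17p. Its differences of -0.40 and -0.38 were the lowest of the ER arm and fell short of 1.5-fold. EDEM1, which hands misfolded glycoproteins to degradation, stood at 0.03, -0.02 and 0.16, and SEL1L, the adaptor of the ubiquitin ligase HRD1, at 0.03, -0.02 and -0.08.

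XBP1, the factor activated by IRE1, stood at 0.15 with vehicle, -0.07 with estradiol and 0.21 with ERα17p. Its probe sets disagreed. One was level at 0.01, -0.01 and -0.04, and the other stood at 0.29, -0.13 and 0.47, and at -0.60 this second one was the only member probe set that was lower in estradiol minus ERα17p. The arrays do not tell spliced from unspliced XBP1 here.

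Of the 3 sensors, ERN1 was lower and the others were not. ERN1, which encodes IRE1α, stood at 0.79 on the vehicle array, -0.00 with estradiol and -0.02 with ERα17p, with differences of -0.80 and -0.81. Of its 3 probe sets 2 were lower, at -0.93 and -0.80 with estradiol and at -0.78 and -1.03 with ERα17p, and the third was flat at 0.03 and 0.04. The gene's -0.81 with ERα17p joins medians from different probe sets and is the difference of none of them. With the mean over the 3 in place of the median, ERN1 came to -0.56 with estradiol, short of 1.5-fold, and to -0.59 with ERα17p, just past it. EIF2AK3 stood at 0.00, 0.09 and 0.06 on the vehicle, estradiol and ERα17p arrays, but its 2 probe sets parted in estradiol minus vehicle (-0.24 and 0.41). ATF6 stood at -0.04, -0.01 and -0.09.

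**Figure D3:**
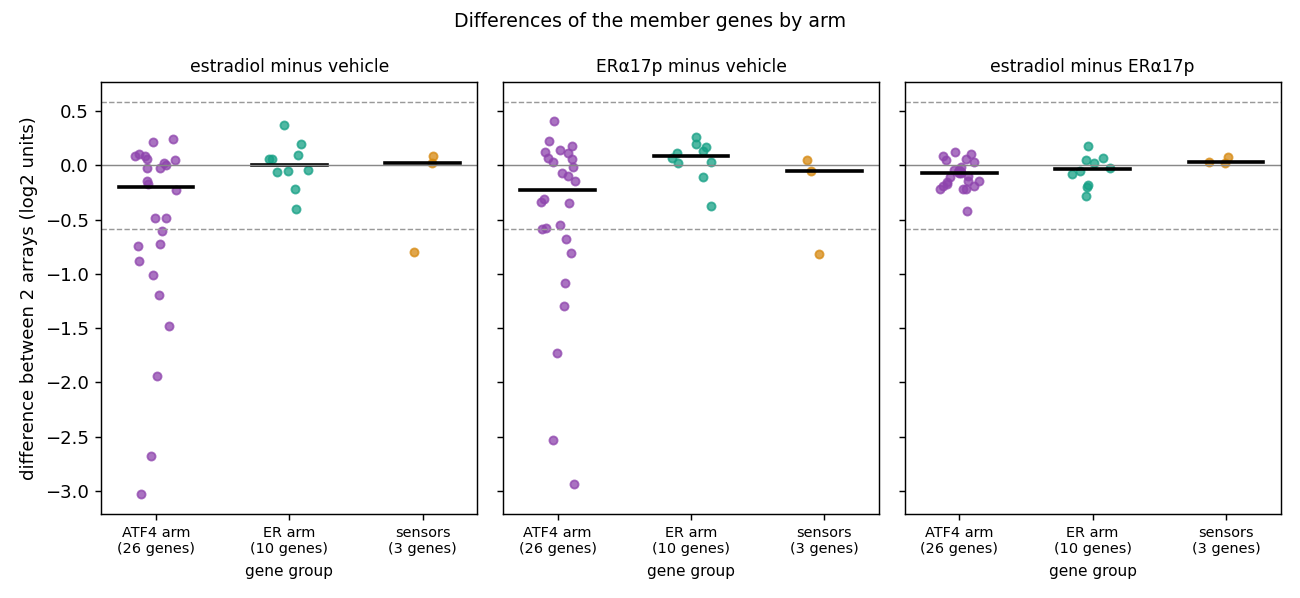
Log2 differences of the member genes in the 3 comparisons, with 1 point per gene, a black bar at the median of each group and dashed lines at 1.5-fold. In both comparisons with vehicle the ATF4 arm reaches down to -3.03 and -2.93 while the ER arm stays between -0.40 and 0.38, and in estradiol minus ERα17p every gene lies inside the lines.

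Set side by side, the ATF4 arm had a median difference of -0.20 with estradiol and the ER arm one of 0.01, a gap of -0.21 between the arms. With ERα17p the medians were -0.23 and 0.09, a gap of -0.32. The mean of the ATF4 arm, on which its widest members weigh more, was -0.58 with estradiol and -0.49 with ERα17p. Of the 7 ATF4 arm genes with the response element letters, CEBPG, CHAC1 and ASNS were lower with each treatment, while JDP2, PPP1R15B, AARS1 and GARS1 were not. PPP1R15A, SESN2, DDIT3, CEBPB and DDIT4 were lower with each treatment as well and had no such letters in the 250 bases searched. The same held for ATF4 and CTH, which were lower with estradiol only. Lower genes and genes that were not lower thus occurred both with and without the letters.

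Estradiol and ERα17p were then compared with each other, which leaves out the vehicle array. None of the 39 genes was lower or higher, where 0.207% of all genes were lower and 0.147% higher. Of the 26 ATF4 arm genes 20 lay below 0, that is lower-valued with estradiol than with ERα17p, and so did 6 of the 10 ER arm genes, against 53.9% of all genes. The medians were -0.07 for the ATF4 arm, -0.04 for the ER arm and -0.01 for all genes. The widest difference was that of DDIT4 (-0.42, or 1.34-fold), which was the 165th lowest of all genes, followed by XBP1 (-0.28). SDF2L1 was at the other end, with 0.18. The standard deviation of this comparison over all genes was 0.16, so that most members lay within 1 such unit of 0.

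Among 5 lists of related genes outside the 39, that of other ATF4 targets held the genes past 1.5-fold. Of its 20 measured genes, 4 were lower with estradiol and 4 with ERα17p, and 0 were higher. Over all genes 2.93% and 2.14% were lower, and 0.809% and 0.582% higher. This list too was chosen with earlier results of these data known, so its count is description only. The lower genes were GADD45A, a growth arrest gene (-2.43 and -1.96), ATF3, a stress-induced repressor (-2.35 and -2.18), CEBPD, a bZIP factor (-1.59 and -1.45), and SLC7A11, the cystine transporter (-1.56 and -0.87). Both probe sets of CEBPD were lower, whereas the 3 of ATF3 ran from -3.57 to 0.04 with estradiol and the 3 of SLC7A11 from -1.63 to 0.04. SLC7A11 stood at 1.495 with vehicle, -0.06 with estradiol and 0.62 with ERα17p, and was the 1 gene of these 20 that was lower with estradiol than with ERα17p (-0.69). Genes that were not called also held probe sets lower by 1.5-fold or more with estradiol. In that comparison GDF15 ran from -1.39 to 0.40, SQSTM1 from -1.25 to 0.25, VEGFA from -0.89 to -0.29 and MAP1LC3B from -0.63 to -0.37. The list's median was -0.15 with estradiol and -0.07 with ERα17p.

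The other 4 lists held 0 genes lower or higher with either treatment, which for lists of this length is near the share over all genes (2.93% lower and 0.809% higher with estradiol, 2.14% and 0.582% with ERα17p). Of 13 further cytosolic aminoacyl-tRNA synthetases 0 were lower or higher with either treatment. The widest values were those of YARS1 (-0.50 and -0.54), TARS1 (-0.50 and -0.49), CARS1 (-0.36 and -0.26) and EPRS1 (-0.24 and -0.36). Single probe sets passed 1.5-fold in YARS1, whose 2 stood at -0.86 and -0.14 with estradiol and at -0.94 and -0.14 with ERα17p. In TARS1 they stood at -0.63 and -0.37 with estradiol. The list's median was -0.06 with estradiol and -0.04 with ERα17p. Of 22 further ER folding and degradation genes 0 were lower or higher, with medians of 0.03 and 0.05, and the widest differences in estradiol minus vehicle were those of OS9 (0.30), a lectin of the degradation pathway, ATF6B (0.27), a relative of ATF6, ERO1A (-0.24), an ER oxidase, and HYOU1 (0.21), an ER chaperone.

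Genes upstream of ATF4 were read next. Of 9 genes for the other eIF2α kinases, for eIF2α and for its exchange factor eIF2B, 0 were lower or higher, and the widest difference was that of the amino acid sensor kinase EIF2AK4 (GCN2) with ERα17p (0.44), where 1 of its 2 probe sets passed 1.5-fold (0.68). It stood at -0.28 on the vehicle array, -0.13 with estradiol and 0.17 with ERα17p. In estradiol minus vehicle the widest were the eIF2B genes EIF2B3 (0.16) and EIF2B2 (-0.15), EIF2AK4 (0.15) and the haem-regulated kinase EIF2AK1 (0.12). A list of heat shock genes, which answer to misfolded protein outside the ER, was cytosolic but for the mitochondrial HSPD1 and HSPE1. HSPA1A, HSPA1B and HSPA8 had no single-symbol probe set and were not measured. Of the 10 measured genes 0 were lower or higher. BAG3 was the lowest of them (-0.27 with estradiol, -0.22 with ERα17p) and the mitochondrial chaperonin gene HSPD1 the highest with estradiol (0.21), followed by its partner HSPE1 (0.19), with HSP90AB1 at -0.11. The 5 probe sets of HSPD1 ran from -0.05 to 0.93 with estradiol. Marker lists were also read. In leukocyte and stromal markers 0 of 6 genes were lower or higher, with the widest estradiol differences in CD3E (0.42), PECAM1 (0.18), COL1A2 (-0.14) and CD14 (-0.10). Of 8 SKBR3 luminal markers 1, TFAP2B, was higher (0.64 with estradiol and 0.63 with ERα17p), and GATA3 (-0.17), GRB7 (0.14) and KRT19 (0.11) followed with estradiol. The 3 probe sets of TFAP2B ran from 0.02 to 0.90 with estradiol and from -0.07 to 0.75 with ERα17p. Over all genes 2.93% were lower and 0.809% higher with estradiol, and 2.14% and 0.582% with ERα17p.

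**Figure D4:**
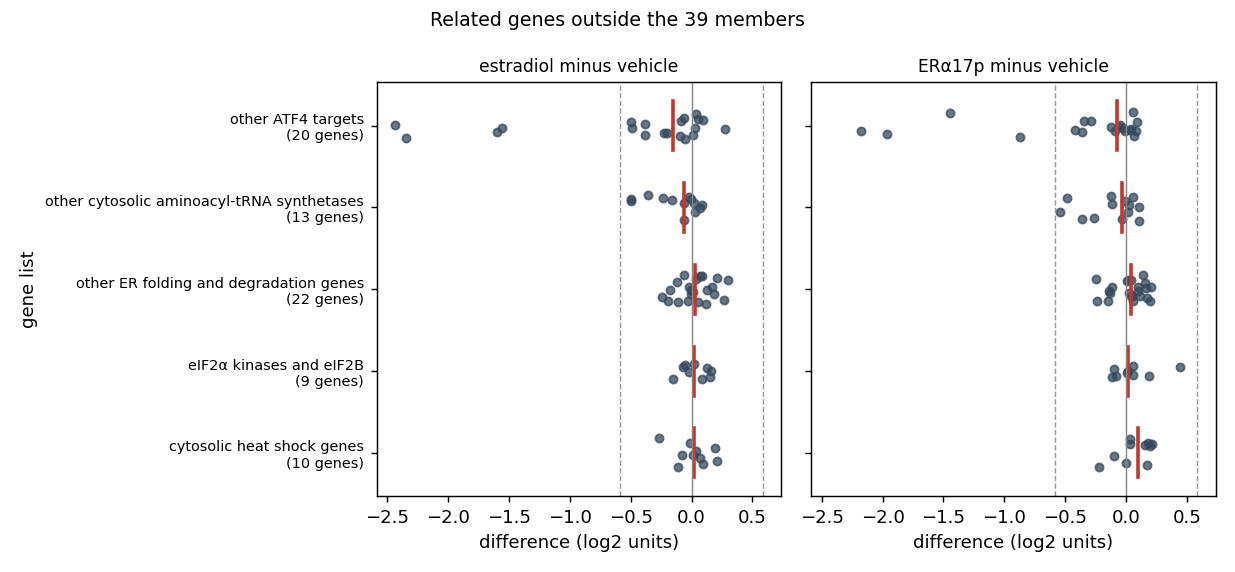
Log2 differences from the vehicle array for 5 lists of related genes, with 1 point per gene, a red bar at each list's median and dashed lines at 1.5-fold. Only the list of other ATF4 targets has points beyond a line, 4 in each panel, and the 22 ER folding and degradation genes lie between -0.24 and 0.30 with estradiol.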

How the data were processed

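RNA of 3 SKBR3 samples was hybridised to 1 array each, and groups came from the sample labels; nothing says whether the cultures were separate experiments. The authors' values came from RMA, per the submitters' processing notes. The deposited values were read as log2, the scale RMA yields, although no source states the base. They are centred: in 3979 of 54675 probe sets (7.28%) 2 of the 3 columns were mirror images around 0 (tolerance 1e-06, values over 0.001). That centring keeps differences between arrays within a probe set and removes levels, so that no filter on dim probe sets was possible.

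Probe sets were named by the platform annotation, with symbols checked by Entrez ID against the gene table of GRCh38.p14. Of the 54675, 41091 had 1 symbol, 1801 several, 11721 none, and 62 were controls. Each gene was given the median of its single-symbol probe sets. A difference is that of 2 such medians. Genes were counted past 1.5-fold, with no test. All 39 members are named, and of each other list the 4 with the widest difference in estradiol minus vehicle. Of the other ATF4 targets, genes with a single probe set past 1.5-fold in that comparison are named too. The members and lists were chosen with earlier results of these data known. Alternatives were the mean over probe sets, leaving out probe sets with the suffix _x_at or _s_at, adding probe sets with several symbols, centring each array on its gene median, a 2-fold rule, and the baseline in place of the vehicle array. Python 3.11.15, pandas 2.3.3 and numpy 2.4.6 were used.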

Additional observations from a re-analysis of the deposited data

How the results depend on the processing

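Against vehicle, the ATF4 arm held 8 to 10 lower genes with estradiol and 7 to 9 with ERα17p under the mean over probe sets, without _x_at and _s_at probe sets, with several-symbol probe sets and with each array centred on its gene median, and the gap between the arms ran from -0.21 to -0.18 and from -0.32 to -0.24. Centring cannot move that gap. The 8 with estradiol and the 7 with ERα17p came from leaving out _x_at and _s_at probe sets, where only 19 of the 26 ATF4 arm genes remained. Counts of 0 in the ER arm and in estradiol minus ERα17p stayed 0 under these settings, and there was little room for them to move. A 2-fold rule left 6 lower ATF4 arm genes with estradiol and 5 with ERα17p. With the baseline in place of the vehicle array, the ATF4 arm had 0 lower or higher genes for either treatment, its median was -0.013 with estradiol and 0.0519 with ERα17p, and the gap between the arms was 0.0079 and 0.038. These 3 arrays form part of the baseline, and the treated arrays lie near it by its making, so these values are no independent alternative to the comparison with vehicle. Among single members 1 call changed with the mean over probe sets (ERN1 with estradiol, no longer lower) and 1 without _x_at and _s_at probe sets (CTH with ERα17p, now lower), and 0 reversed. The latter setting left 29 of the 39 genes. No paired analysis was possible because each group has 1 array. Signal over background is unknown, so that differences of genes near background cannot be told from those of expressed genes.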
